A study of Homo sapiens with 6 samples.

Results

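The genes described here are 43 ligands and receptors of 4 guidance systems. The first are the ephrins and their EPH receptors, and the SLIT proteins and their ROBO receptors. The others are the netrins with the UNC5, DCC and neogenin receptors, and RTN4 (Nogo) with its receptor RTN4R, homologs of RTN4R and the co-receptor LINGO1. The genes were taken by symbol from a table of 24294 loci, and all 43 had a locus in it. Of these, 16 averaged 1 FPKM or more across the 6 libraries and entered the test, which covered 11574 loci in all. FPKM is the number of sequenced fragments scaled by transcript length and by the size of the library, so that levels of genes of different length can be set side by side. RNA sequencing was done on 3 samples of MCF12A cells that stably over-expressed miR-424 and 3 samples of MCF12A cells that carried the empty vector (EV), all grown for 48 hours. The labels give no other genotype or agent for either group and do not tell whether the replicates are separately derived lines, so p-values reflect no more than the spread of these samples, and that spread may be technical. The labels call MCF12A a breast cancer line, whereas it is generally described as an immortalized, non-tumorigenic human mammary epithelial line.

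These systems were first described for the steering of growing axons and are also used by epithelial cells. Ephrins are membrane-bound ligands, held by a lipid anchor (EFNA) or a transmembrane segment (EFNB), and EPH receptors are tyrosine kinases that read them on a touching cell, where they govern repulsion, adhesion and the sorting of cells into compartments. SLITs and netrins are secreted proteins that attract or repel through ROBO, DCC, UNC5 and neogenin receptors and act in the shaping of ducts in the mammary gland. RTN4 is a membrane protein of the endoplasmic reticulum that can inhibit axon growth through the Nogo receptor RTN4R. RTN4R and its homologs are held on the cell surface by a lipid anchor.

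The over-expressed microRNA and its matching letters in 4 of these genes are shown because the microRNA is what was varied; they are 4 of the 5 tested genes that have a locus of their own and a match. The other, EPHB2, had the highest log2 change of the 16 tested genes (0.18, not past the test) and its window is not shown here, and SLIT1, whose match is followed by A, is left aside because its locus is merged with another gene. In the mature microRNA the capitals mark the seed, bases 2 to 8 (RefSeq, GRCh38.p14, minus strand of chrX:134546680-134546701). In the 3′ UTR windows, taken from the longest 3′ UTR of each gene in GENCODE 29 (GRCh38) and written on the transcript strand, the capitals mark the letters TGCTGCT that pair with the whole seed.
hsa-miR-424-5p: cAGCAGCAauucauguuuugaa
EPHB4, chr7:100803011-100803035, minus strand: agtcccaactTGCTGCTgtcaccac
EFNB1, chrX:68841720-68841744, plus strand: acccagctccTGCTGCTgtcccagt
RTN4RL1, chr17:1934816-1934840, minus strand: aagccggccgTGCTGCTggccgggg
EFNB2, chr13:106492263-106492287, minus strand: tgcagctcacTGCTGCTgcctctga
The first 3 of these transcripts were lower in miR-424 cells and the last, EFNB2, was not past the test, with values given below. In none of the 4 windows is the match followed by the A that extends it to 8 letters.

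The libraries were checked before the genes were compared. The merged locus MGC16121/MIR424, which holds the gene of the microRNA, read 107, 106 and 224 FPKM in miR-424 replicates 1, 2 and 3 and 0.989, 1.27 and 1.23 FPKM in EV replicates 1, 2 and 3. Of 12 mammary epithelial markers 8 had a mean of at least 1 FPKM, among them KRT5, KRT8 and KRT18. The others were CDH3 (0.392 FPKM) and TP63 (0.153 FPKM), and E-cadherin (CDH1, 0.0206 FPKM) and KRT19 (0.0935 FPKM), which were close to 0. Of 5 endothelial markers 0 reached 1 FPKM. Markers of other cell types were present in part: CD68 averaged 55.3 FPKM and LYZ 1.203 FPKM among 5 leukocyte markers, and DCN averaged 125 FPKM among 4 fibroblast markers, with the other members of both lists under 1 FPKM. Of 3 mesenchymal markers FN1 was higher, at 421 ± 5.84 FPKM in miR-424 cells and 265 ± 2.35 FPKM in EV cells (SD, n = 3 each; limma, BH-adjusted p = 0.000668). VIM averaged 985 FPKM and CDH2 27.7 FPKM over the 6 libraries, and neither passed the test. The 3 mesenchymal markers summed to 1416 to 1499 FPKM in miR-424 libraries and 1249 to 1275 FPKM in EV libraries. The 12 epithelial markers summed to 338 to 362 FPKM in miR-424 libraries and 369 to 385 FPKM in EV libraries; 3 of them passed the test, KRT5 and ITGB4 lower and KRT14 higher in miR-424 cells. The part of these marker differences in the results below was not tested. Of 8 markers of neurons and glia 3 reached 1 FPKM: TUBB3 averaged 69.8 FPKM and MAP2 1.14 FPKM over the 6 libraries and did not pass the test, although their groups did not overlap, and MBP was lower, at 0.814 ± 0.0221 FPKM in miR-424 cells and 1.28 ± 0.0251 FPKM in EV cells (SD, n = 3 each; limma, BH-adjusted p = 0.00817). The 8 summed to 70.9 to 81.7 FPKM in miR-424 libraries and 68.7 to 70.2 FPKM in EV libraries. Read numbers are unknown, and the spacing of the lowest values allowed a rough estimate of depth, which with EV replicate 1 set to 1 was 0.776 to 1.24 in miR-424 libraries and 0.966 to 1.04 in EV replicates 2 and 3. This estimate has weak support. The share of low loci within 0.03 (log2) of it ran from 3.79% in miR-424 replicate 3 to 9.52% in miR-424 replicate 1. The third miR-424 library stood apart: over the tested loci its median absolute log2 difference from miR-424 replicates 1 and 2 was 0.142 and 0.152, against 0.0408 between those replicates and at most 0.0417 between EV libraries. These are bulk samples, in which fewer cells holding a transcript and less of it per cell cannot be told apart.

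Of the 16 tested genes 6 were lower in miR-424 cells and 0 were higher with a threshold of 0.05 on limma p-values adjusted by the Benjamini-Hochberg method (BH). The 6 were the receptors EPHB4, EPHB6 and RTN4RL1, the ligands EFNB1 and NTN4, and RTN4 itself. Over all tested loci 6.32% were lower and 1.24% were higher, and 37.5% of the tested genes of these families were lower. The families were chosen with earlier results of these data known, and the difference between these shares was not tested. Another gene, EPHB2, had an unadjusted p under 0.05, and the other 9 tested genes did not. The median log2 change of the 16 genes was -0.11, against -0.05 over all tested loci. The libraries of the groups did not overlap for 7 of the 16 genes (43.8%), and for 33.5% of all tested loci. Over all loci the balance of calls depended on scaling between libraries: rises made up 16.5% of calls with the values as deposited, 41.6% after quantile normalization and 38.4% after median-of-ratios scaling. With either scaling 5 of the 16 genes were lower and 0 were higher. All 11574 tested loci gave 447 lower and 319 higher with quantile normalization, and 495 lower and 308 higher with median-of-ratios scaling. Leaving out EV replicate 1, 2 or 3 left 1, 2 and 1 lower genes of the 16, where all tested loci gave 77, 79 and 84, and leaving out miR-424 replicate 1 left 3, where all tested loci gave 280.

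**Figure D1:**
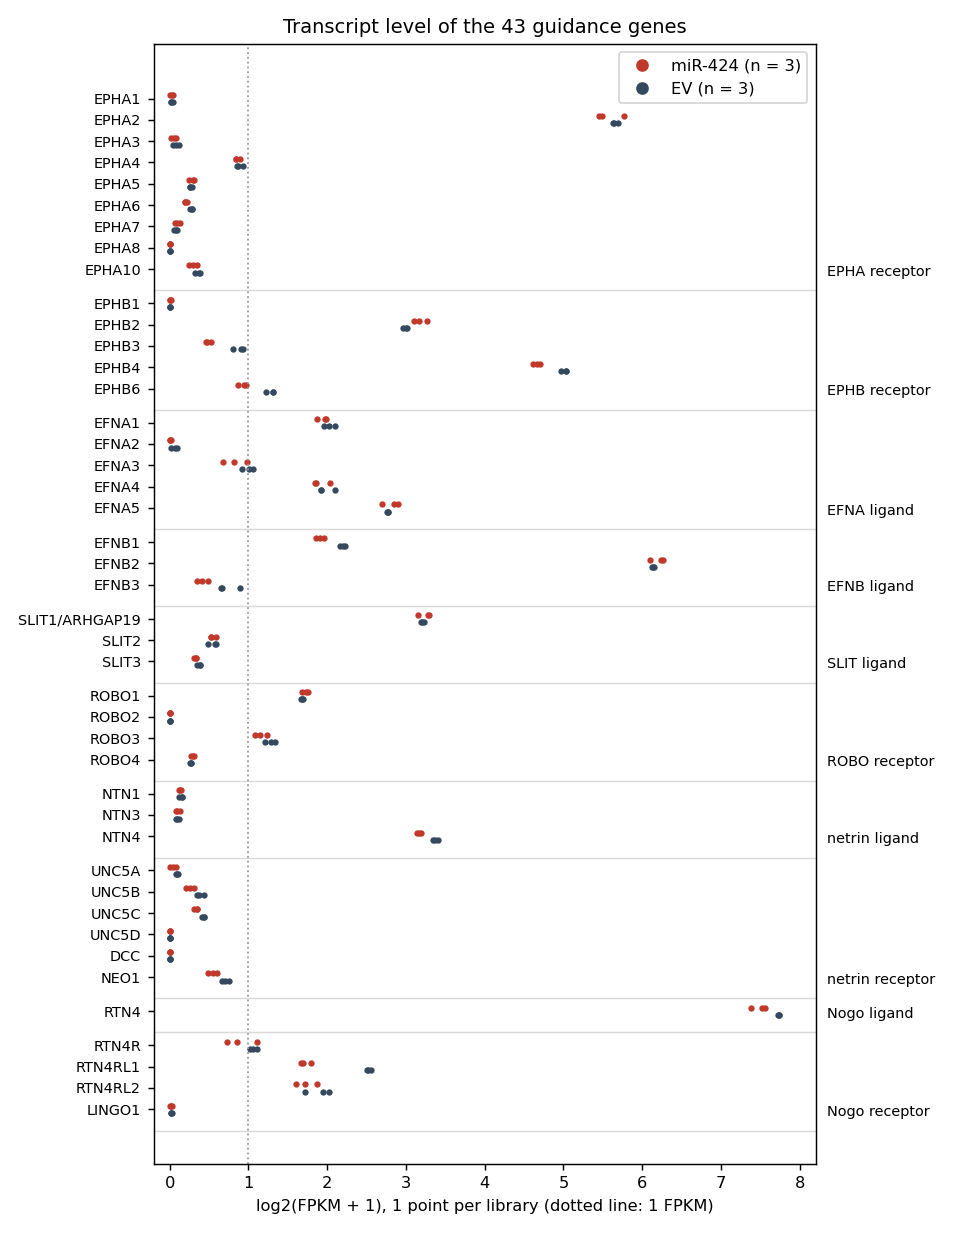
Transcript level of all 43 genes as log2(FPKM + 1), 1 point per library, with miR-424 libraries in red above EV libraries in dark blue, grouped by family; the dotted line stands at 1 FPKM. RTN4, EFNB2, EPHA2 and EPHB4 are the most abundant, 27 genes have a mean under 1 FPKM, and SLIT1 shares its value with ARHGAP19.

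EPH receptor transcripts in these cells came mainly from EPHA2 and EPHB4. EPHB4, the receptor that pairs with EFNB2, and EPHB6, which lacks kinase activity, fell in miR-424 cells, EPHB2 had a log2 change of the opposite sign that was not past the test, and EPHA2 was also not past it. Of the 14 EPH receptors 4 were tested, 2 were lower, 0 were higher and 10 were under 1 FPKM.

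EPHB4 (chr7:100400186-100425143, hg19) read 24.9, 24.3 and 23.5 FPKM in miR-424 replicates 1, 2 and 3 and 31.8, 30.4 and 31.6 FPKM in EV replicates 1, 2 and 3. The 3 miR-424 libraries lay close together and below every EV library. Its mean was 24.3 ± 0.711 FPKM in miR-424 cells and 31.3 ± 0.770 FPKM in EV cells (SD, n = 3 each), a ratio of 0.776, with a log2 change of -0.35 ± 0.04 (SE; limma, BH-adjusted p = 0.00661). The call ended without EV replicate 1 or EV replicate 3 (limma, adjusted p = 0.0581 and 0.0556, spanning 0.000350 to 0.0581 across 17 alternatives), with log2 changes of -0.34 in either case.

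EPHB6 (chr7:142552791-142568847, hg19) was far less abundant, at 0.926, 0.829 and 0.962 FPKM in miR-424 replicates 1 to 3 and 1.48, 1.33 and 1.47 FPKM in EV replicates 1 to 3. The groups did not overlap. The ratio of means was 0.634 and the log2 change -0.35 ± 0.05 (SE; limma, BH-adjusted p = 0.0130), on a log2(FPKM + 1) scale that understates the change of a gene this low. With a pseudocount of 0.1 the log2 change was -0.60. The call ended without EV replicate 1, 2 or 3 (limma, adjusted p = 0.0795, 0.0575 and 0.0797, spanning 0.00306 to 0.0797 across 16 alternatives).

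EPHB2, a kinase-active receptor for EFNB ligands, read 7.96, 7.55 and 8.602 FPKM in miR-424 replicates 1 to 3 and 7.04, 6.82 and 7.06 FPKM in EV replicates 1 to 3. Every miR-424 library lay above every EV library, yet the log2 change of 0.18 ± 0.05 (SE) did not pass the test (limma, unadjusted p = 0.0131, BH-adjusted p = 0.1005). It passed with the GC trend of each library removed (0.25, limma adjusted p = 0.0115) and without miR-424 replicate 3 (0.13, limma adjusted p = 0.0225), spanning 0.00321 to 0.326 across 17 alternatives.

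EPHA2, the EPH receptor that epithelial cells commonly carry, read 43.9, 42.7 and 53.6 FPKM in miR-424 replicates 1 to 3 and 48.4, 48.9 and 50.6 FPKM in EV replicates 1 to 3. The miR-424 libraries fell on both sides of the EV libraries, with replicates 1 and 2 below and replicate 3 above all of them. The log2 change was -0.08 ± 0.09 (SE; limma, BH-adjusted p = 0.640), and without miR-424 replicate 3 it was -0.18 (limma, adjusted p = 0.00267). With replicate 3 also left out and the GC trend removed it was -0.08 (limma, adjusted p = 0.0705).

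Summed over the EPH receptors, the level was 79.8, 77.4 and 88.6 FPKM in miR-424 replicates 1 to 3 and 91.1, 90.0 and 93.2 FPKM in EV replicates 1 to 3. EPHA2 made up 56.9 ± 3.11% of this sum in miR-424 cells and 53.9 ± 0.704% in EV cells. EPHB4 made up 29.8 ± 2.78% in miR-424 cells and 34.2 ± 0.588% in EV cells. EPHB2 made up 9.82 ± 0.145% in miR-424 cells and 7.63 ± 0.0814% in EV cells (SD, n = 3 each). In every miR-424 library the EPHB4 share was below, and the EPHB2 share above, that in every EV library. The EPHB receptors together summed to 34.2, 33.1 and 33.5 FPKM in miR-424 replicates 1 to 3 and 41.1, 39.4 and 40.9 FPKM in EV replicates 1 to 3.

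EPHB3, another kinase-active receptor for EFNB ligands, had a mean of 0.622 FPKM and was therefore not among the tested genes. It read 0.393, 0.382 and 0.438 FPKM in miR-424 replicates 1 to 3 and 0.867, 0.907 and 0.747 FPKM in EV replicates 1 to 3. The groups did not overlap and the ratio of means was 0.481. When the filter on low values was left out, its log2 change was -0.39 (limma, BH-adjusted p = 0.0112). In that setting 40 of the 43 genes were tested and 6 were lower, with EPHB3 in and RTN4 out. All 19342 loci tested in that setting gave 749 lower and 152 higher. Among the other low receptors, EPHA4 averaged 0.816 ± 0.0311 FPKM in miR-424 cells and 0.8497 ± 0.0569 FPKM in EV cells, and EPHA6 averaged 0.151 ± 0.0120 FPKM in miR-424 cells and 0.211 ± 0.0139 FPKM in EV cells (SD, n = 3 each). EPHA5 and EPHA10 lay at a mean of 0.211 and 0.257 FPKM over the 6 libraries, EPHA1, EPHA3, EPHA7 and EPHB1 were under 0.1 FPKM, and EPHA8 was listed at 0 in every library.

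**Figure D2:**
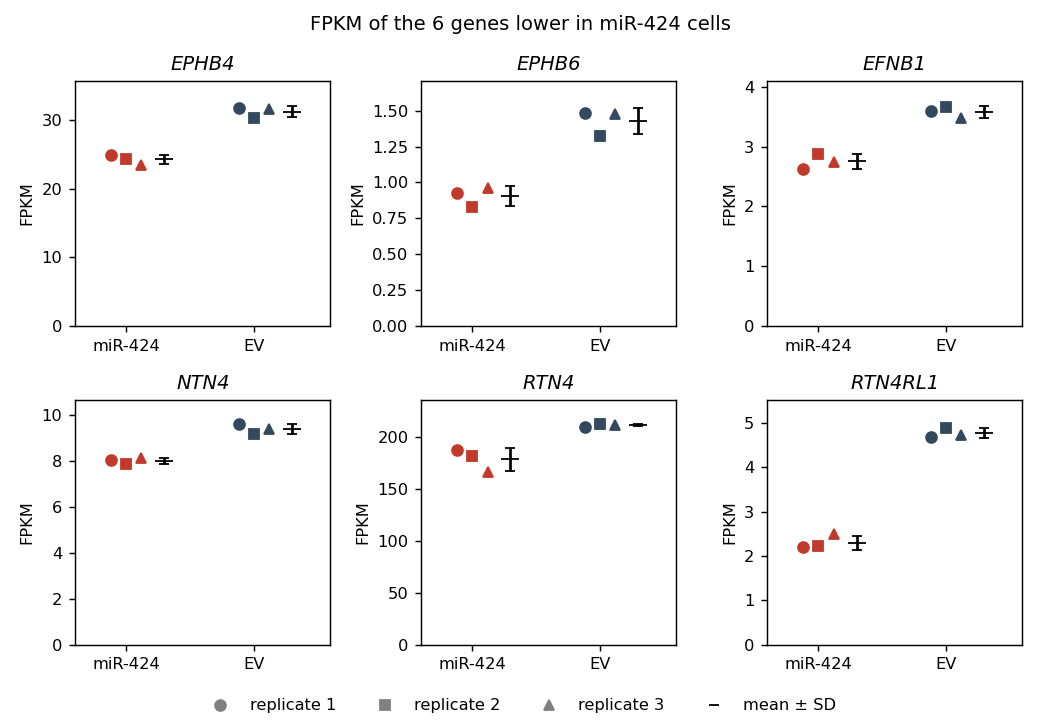
FPKM of the 6 genes that were lower in miR-424 cells, 1 point per library (circle, square and triangle for replicates 1, 2 and 3) with the mean and SD beside them; every axis starts at 0. In each of the 6 panels all miR-424 libraries lie below all EV libraries, and the ratio of means runs from 0.482 for RTN4RL1 to 0.851 for NTN4.

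Among the ephrins, EFNB1 fell and the much more abundant EFNB2 did not pass the test. Of the 8 ephrins 5 were tested, 1 was lower and 0 were higher. EFNB1 (chrX:68048839-68062006, hg19), a transmembrane ligand of EPHB receptors, read 2.63, 2.88 and 2.75 FPKM in miR-424 replicates 1 to 3 and 3.60, 3.66 and 3.48 FPKM in EV replicates 1 to 3. The groups did not overlap, with a ratio of means of 0.769 and a log2 change of -0.29 ± 0.05 (SE; limma, BH-adjusted p = 0.0166). The call ended without EV replicate 1, 2 or 3 (limma, adjusted p = 0.0954, 0.105 and 0.0805) and without miR-424 replicate 1 (limma, adjusted p = 0.0640), spanning 0.00370 to 0.105 across 16 alternatives.

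EFNB2 (chr13:107142078-107187388, hg19), the ligand that pairs with EPHB4, read 74.6, 75.8 and 67.6 FPKM in miR-424 replicates 1 to 3 and 70.1, 69.5 and 68.9 FPKM in EV replicates 1 to 3. Replicates 1 and 2 of miR-424 lay above the EV libraries and replicate 3 below them. The log2 change was 0.06 ± 0.05 (SE; limma, BH-adjusted p = 0.530), and without miR-424 replicate 3 it was 0.11 (limma, adjusted p = 0.00518). EFNB2 made up 82.4 ± 0.425% of all ephrin FPKM in miR-424 cells and 80.2 ± 0.584% in EV cells (SD, n = 3 each). The EFNB1 share was 3.13 ± 0.206% in miR-424 cells and 4.13 ± 0.0702% in EV cells. All ephrins together summed to 90.0, 92.3 and 82.4 FPKM in miR-424 replicates 1 to 3 and 86.8, 87.4 and 85.8 FPKM in EV replicates 1 to 3, so the groups overlapped.

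EFNB3, the least abundant of the transmembrane ephrins, read 0.273, 0.335 and 0.399 FPKM in miR-424 replicates 1 to 3 and 0.565, 0.859 and 0.581 FPKM in EV replicates 1 to 3. The groups did not overlap and the ratio of means was 0.502, but with no filter on low values its log2 change of -0.32 did not pass (limma, BH-adjusted p = 0.0803). Of the lipid-anchored ephrins, EFNA5 was the most abundant, at 6.05 ± 0.517 FPKM in miR-424 cells and 5.82 ± 0.0246 FPKM in EV cells (SD, n = 3 each; log2 change 0.05 ± 0.06, SE). Without miR-424 replicate 3 its log2 change was 0.11 (limma, BH-adjusted p = 0.0413). EFNA1, a ligand of EPHA2, averaged 2.84 ± 0.168 FPKM in miR-424 cells and 3.08 ± 0.201 FPKM in EV cells (log2 change -0.09 ± 0.06, SE), and EFNA4 averaged 2.78 ± 0.277 FPKM in miR-424 cells and 2.95 ± 0.275 FPKM in EV cells (log2 change -0.07 ± 0.07, SE). EFNA1, EFNA3 and EFNA4 are neighbours on chromosome 1, between positions 155006281 and 155107386 (hg19), and none of them passed or separated the groups. EFNA3 averaged 0.780 ± 0.193 FPKM in miR-424 cells and 0.993 ± 0.0954 FPKM in EV cells, just under the minimum for testing, and EFNA2 was under 0.1 FPKM.

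No SLIT or ROBO transcript passed the test. Of these 7 genes 3 were tested. ROBO1, the main receptor of SLIT2, averaged 2.30 ± 0.0951 FPKM in miR-424 cells and 2.20 ± 0.0257 FPKM in EV cells (SD, n = 3 each), with a log2 change of 0.04 ± 0.04 (SE; limma, BH-adjusted p = 0.639). ROBO3, which acts in midline crossing of axons, averaged 1.23 ± 0.125 FPKM in miR-424 cells and 1.43 ± 0.107 FPKM in EV cells, with a log2 change of -0.13 ± 0.06 (SE; limma, BH-adjusted p = 0.276) and overlapping groups. The third tested value was that of SLIT1, whose locus (chr10:98757794-99052430, hg19) is merged with its neighbour ARHGAP19, which encodes a GTPase-activating protein. The merged locus averaged 8.48 ± 0.486 FPKM in miR-424 cells and 8.24 ± 0.126 FPKM in EV cells (log2 change 0.04 ± 0.05, SE), and it does not tell how much of that is SLIT1. SLIT2 averaged 0.457 ± 0.0380 FPKM in miR-424 cells and 0.466 ± 0.0516 FPKM in EV cells, and SLIT3 averaged 0.251 ± 0.0136 FPKM in miR-424 cells and 0.294 ± 0.0179 FPKM in EV cells. ROBO4, known as an endothelial receptor, averaged 0.224 ± 0.0125 FPKM in miR-424 cells and 0.202 ± 0.00285 FPKM in EV cells, with every miR-424 library above every EV library, next to ROBO3 on chromosome 11, and ROBO2 was listed at 0 in every library.

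NTN4 was the 1 netrin expressed above 1 FPKM, and it was lower in miR-424 cells. NTN4 (chr12:96051582-96184536, hg19), a netrin of basement membranes that binds laminins, read 8.01, 7.83 and 8.10 FPKM in miR-424 replicates 1 to 3 and 9.59, 9.17 and 9.37 FPKM in EV replicates 1 to 3. The groups did not overlap. The ratio of means was 0.851 and the log2 change -0.21 ± 0.04 (SE; limma, BH-adjusted p = 0.0287). The call ended under several alternatives: limma gave adjusted p = 0.111 with quantile normalization and also with median-of-ratios scaling, 0.0537 with the GC trend removed, 0.149, 0.120 and 0.144 without EV replicate 1, 2 or 3, and 0.0937 and 0.0917 without miR-424 replicate 1 or 2, spanning 0.00261 to 0.149 across 17 alternatives. In all of them the log2 change lay between -0.23 and -0.16. NTN1 averaged 0.0961 ± 0.0116 FPKM in miR-424 cells and 0.108 ± 0.0171 FPKM in EV cells, and NTN3 was under 0.1 FPKM.

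None of the 6 netrin receptors reached the minimum for testing. NEO1, which encodes neogenin and is the most abundant of them, read 0.515, 0.400 and 0.471 FPKM in miR-424 replicates 1 to 3 and 0.630, 0.582 and 0.683 FPKM in EV replicates 1 to 3. UNC5C read 0.273, 0.273 and 0.242 FPKM in miR-424 replicates 1 to 3 and 0.352, 0.356 and 0.326 FPKM in EV replicates 1 to 3. UNC5B read 0.241, 0.156 and 0.194 FPKM in miR-424 replicates 1 to 3 and 0.293, 0.356 and 0.277 FPKM in EV replicates 1 to 3. In these 3 genes every miR-424 library lay below every EV library. Of the 24 genes of these families above 0 and under 1 FPKM, 7 were separated in this way (EPHA6, EPHB3, EFNB3, SLIT3, UNC5B, UNC5C and NEO1) and 1, ROBO4, in the other direction, against 13.5% and 3.32% of all loci in that range. With no filter on low values the netrin receptors NEO1, UNC5C and UNC5B did not pass (limma, BH-adjusted p = 0.0867, 0.0532 and 0.107). UNC5A and UNC5D were under 0.1 FPKM, and DCC, through which netrins attract axons, was listed at 0 in every library.

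RTN4RL1, a Nogo receptor homolog anchored to the membrane by a lipid, fell further than any other of the 16 tested genes. RTN4RL1 (chr17:1837970-1928178, hg19) read 2.19, 2.22 and 2.48 FPKM in miR-424 replicates 1 to 3 and 4.68, 4.89 and 4.73 FPKM in EV replicates 1 to 3. Every miR-424 library was far below every EV library. Its mean was 2.30 ± 0.161 FPKM in miR-424 cells and 4.77 ± 0.108 FPKM in EV cells (SD, n = 3 each), a ratio of 0.482, with a log2 change of -0.81 ± 0.05 (SE; limma, BH-adjusted p = 0.00130). The call held in all 16 alternatives in which the locus was tested, with log2 changes between -1.02 and -0.72 (limma, adjusted p between 4.99e-05 and 0.0196); at a minimum mean of 5 FPKM it was not tested.

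RTN4 (chr2:55199326-55277734, hg19), the source of the Nogo isoforms and the most abundant of the 43 transcripts, also fell. It read 188, 182 and 166 FPKM in miR-424 replicates 1 to 3 and 210, 212 and 211 FPKM in EV replicates 1 to 3. The groups did not overlap, and miR-424 replicate 3 was the lowest library. The ratio of means was 0.846 and the log2 change -0.24 ± 0.05 (SE; limma, BH-adjusted p = 0.0358), and 1 value covers all isoforms of the locus. The call ended without EV replicate 1, 2 or 3 (limma, adjusted p = 0.149, 0.161 and 0.156), without miR-424 replicate 1 or 2 (limma, adjusted p = 0.0579 and 0.0813) and with no filter on low values (limma, adjusted p = 0.0549), spanning 0.000603 to 0.161 across 17 alternatives.

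The other Nogo receptor genes did not pass. RTN4RL2, the second homolog, averaged 2.34 ± 0.313 FPKM in miR-424 cells and 2.73 ± 0.391 FPKM in EV cells (SD, n = 3 each; log2 change -0.16 ± 0.10, SE; limma, BH-adjusted p = 0.393). RTN4R, the Nogo receptor itself, read 0.802, 0.663 and 1.16 FPKM in miR-424 replicates 1 to 3 and 1.02, 1.09 and 1.15 FPKM in EV replicates 1 to 3, and its mean of 0.982 FPKM was the closest to the minimum for testing from below. EPHB6, with a mean of 1.17 FPKM, was the closest from above. LINGO1, a co-receptor of RTN4R, was under 0.1 FPKM. RTN4RL1 made up 41.8 ± 2.30% of the summed FPKM of RTN4R, RTN4RL1, RTN4RL2 and LINGO1 in miR-424 cells and 55.5 ± 3.04% in EV cells, and that sum was 5.05, 5.18 and 6.34 FPKM in miR-424 replicates 1 to 3 and 8.77, 8.29 and 8.75 FPKM in EV replicates 1 to 3.

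**Figure D3:**
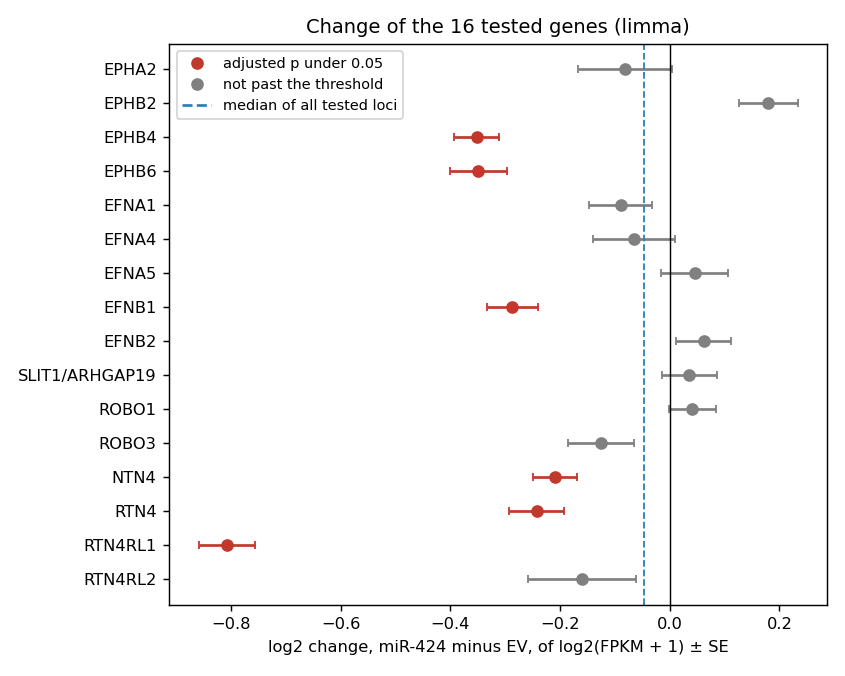
Log2 change of log2(FPKM + 1), miR-424 minus EV, with its SE for the 16 tested genes, in red where the limma adjusted p was under 0.05 and in gray otherwise; the dashed line is the median of all tested loci (-0.05). RTN4RL1 stands at -0.81, the 5 other red points between -0.35 and -0.21, and EPHB2 at 0.18 is the highest point.

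The genes that fell were compared for what they share beside their families. Transcript GC content was 61.5% to 62.6% for EPHB4, EPHB6 and RTN4RL1, 60.5% for EFNB1, 47.9% for NTN4 and 44.7% for RTN4. Among the 10 tested genes that were not called it ran from 43.2% for EFNA5 to 69.1% for RTN4RL2, with EPHA2 at 62.2% and ROBO3 at 63.2%. Loci over 60% GC had median deviations from the EV mean of -0.09, -0.12 and -0.05 (log2) in miR-424 replicates 1, 2 and 3, and loci under 40% GC had 0.07, 0.09 and -0.22. With the GC trend of each library removed, the log2 change was -0.26 for EPHB4 and EPHB6, -0.21 for EFNB1 and -0.72 for RTN4RL1, with limma adjusted p between 0.000284 and 0.0285, and -0.21 for RTN4 (0.00734). For the uncalled genes EPHA2, ROBO3 and RTN4RL2 it was 0.01, -0.03 and -0.04. Under that setting 5 of the 16 genes were lower and 1, EPHB2, was higher, where all 11407 loci tested gave 857 lower and 689 higher. With miR-424 replicate 3 also left out, 6 were lower and 2, EPHB2 and EFNB2, were higher, where all loci gave 1745 lower and 1662 higher. Without replicate 3 and with no removal of the trend, 7 were lower and 3 were higher, where all tested loci gave 2574 lower and 1728 higher.

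The letters TGCTGCT, searched on the transcript strand only, were present in the longest annotated 3′ UTR of 15 of the 43 genes (34.9%), against 20.4% of 18918 loci of the table with such a UTR. A longer 3′ UTR gives more room for a match, and lengths were not compared between these sets. The match of EPHB2 lay in its longest 3′ UTR (700 bases) and not in its shortest (173 bases). Among 15 tested genes of these families with their own locus, 5 held a match and 3 of those fell, while 10 held none and 3 of those fell. The median log2 change was -0.29 for the 5 and -0.11 for the 10. Over all tested loci with a 3′ UTR it was -0.06 for the 2564 with a match and -0.04 for the 8108 without, with 255 and 444 lower loci in those sets. The loci with a match were 24.0% of all tested loci with a 3′ UTR. NTN4, RTN4 and EPHB6 fell with no match of these 7 letters. The 3′ UTR of RTN4 held the shorter form that pairs with bases 2 to 7 and is followed by A. So did those of EFNB1, which fell, of EFNA5 and EFNB2, which did not pass, and of SLIT1, whose locus is merged. Several genes under the minimum for testing held this form as well, and its share over all loci was not compared. NEO1, which was below the minimum for testing, held 2 matches, of which 1 was followed by A. A match describes letters and is not a measured site of binding. Only the seed of miR-424-5p was searched, and that of miR-424-3p, from the same gene, was not. The seed of miR-424-5p is also that of miR-15a-5p, miR-15b-5p, miR-16-5p, miR-195-5p and miR-497-5p.

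**Figure D4:**
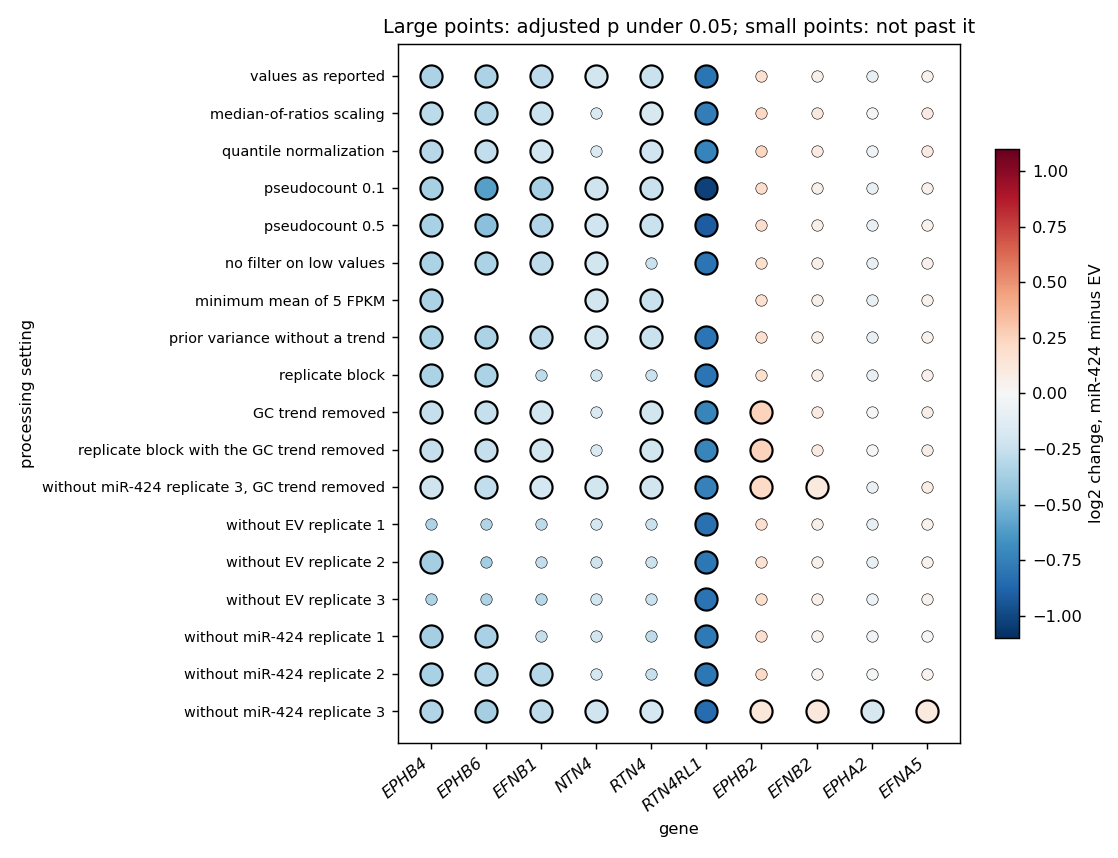
Log2 change, miR-424 minus EV, of 10 genes (columns) under the reported processing and each alternative (rows), as color from blue (lower) to red (higher); large points have a limma adjusted p under 0.05, small points do not, and an empty place means that the gene was not tested. RTN4RL1 is large in every row where it is present, NTN4 and RTN4 turn small when any 1 library other than miR-424 replicate 3 is left out, and EPHB2, EFNB2, EPHA2 and EFNA5 turn large without that replicate.

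Partners and relatives of these ligands and receptors were counted from a list of 63 genes, of which 62 matched a symbol of the table and 43 were tested. Of these 43, 5 were lower (11.6%) and 1 was higher (2.33%), against 6.32% and 1.24% of all tested loci. The median log2 change was -0.04, against -0.05 over all tested loci. Heparan sulfate proteoglycans, which bind SLITs, were among the lower genes. Syndecan 1 (SDC1) averaged 53.4 ± 0.750 FPKM in miR-424 cells and 73.9 ± 0.929 FPKM in EV cells (SD, n = 3 each), with a log2 change of -0.46 ± 0.03 (SE; limma, BH-adjusted p = 0.00197), and it passed in all 17 alternatives. Glypican 1 (GPC1) averaged 44.8 ± 1.47 FPKM in miR-424 cells and 57.0 ± 1.18 FPKM in EV cells, with a log2 change of -0.34 ± 0.04 (SE; limma, BH-adjusted p = 0.00702). The other 7 tested SLIT-ROBO partners, the SRGAP and ARHGAP39 GTPase-activating proteins among them, did not pass.

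Of 19 tested partners of EPH receptors and ephrins 1 was lower (5.26%, against 6.32% of all tested loci). It was VAV2, a guanine nucleotide exchange factor that binds activated EPH receptors, at 20.6 ± 0.532 FPKM in miR-424 cells and 23.6 ± 0.142 FPKM in EV cells (SD, n = 3 each; log2 change -0.19 ± 0.04, SE; limma, BH-adjusted p = 0.0331). Of 9 tested genes listed with the netrins and their receptors, the netrin-related membrane protein NTNG1 was higher. It averaged 1.52 ± 0.0530 FPKM in miR-424 cells and 1.16 ± 0.0964 FPKM in EV cells (log2 change 0.23 ± 0.05, SE; limma, BH-adjusted p = 0.0455). The UNC5 ligand FLRT3 was lower, at 1.37 ± 0.0879 FPKM in miR-424 cells and 1.82 ± 0.112 FPKM in EV cells (log2 change -0.25 ± 0.05, SE; limma, BH-adjusted p = 0.0379). Of 6 tested partners of Nogo receptors, ARHGDIA, which encodes a GDP dissociation inhibitor, was lower, at 129 ± 2.87 FPKM in miR-424 cells and 159 ± 1.99 FPKM in EV cells (log2 change -0.30 ± 0.03, SE; limma, BH-adjusted p = 0.00661), while NGFR, a co-receptor of RTN4R in neurons, averaged 0.120 ± 0.0159 FPKM in miR-424 cells and 0.117 ± 0.0331 FPKM in EV cells. The calls of VAV2, NTNG1 and FLRT3 were lost when any 1 of the libraries was left out, miR-424 replicate 3 excepted (limma, BH-adjusted p up to 0.170, 0.169 and 0.165 over their alternatives). That of VAV2 was also lost with median-of-ratios scaling (limma, adjusted p = 0.0816) and quantile normalization (0.0617). That of FLRT3 was lost with quantile normalization (limma, adjusted p = 0.0602), with the GC trend removed (0.0634) and with no filter on low values (0.0547), and that of NTNG1 with a pseudocount of 0.1 (limma, adjusted p = 0.0509) and with no filter (0.0562). Those of GPC1 and ARHGDIA were lost without EV replicate 1, 2 or 3 (limma, adjusted p up to 0.0581).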

How the data were processed

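The authors deposited 1 table of FPKM values with 1 column per sample and hg19 positions of loci; per the submitters' processing notes the tools included TopHat 1.4.1, Cufflinks 1.3.0 and Cuffdiff, with hg19 (GRCh37) as build. Nothing used here states the annotation, the use of strand, the scaling or the read numbers, so no count test and no counting interval was used. Members were matched by symbol, taking the row with the highest mean. Values were tested as log2(FPKM + 1) for loci averaging 1 FPKM or more (11574 loci, 285 of which carry several symbols) with limma 3.58.1 in R 4.3.3: miR-424 against EV, trended prior variance, no covariate, two-sided, Benjamini-Hochberg adjustment over all tested loci, threshold 0.05. An exact permutation test of 3 against 3 cannot go below a p of 0.1 and was not used. Limma was tested on simulated data with independent errors in each locus, which held no shift of a whole library and no GC trend. That test does not give the error rate of the calls in these data.

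Members and lists were chosen with earlier results of these data known. Tested genes are all described, with per-library values for those past the threshold, with an unadjusted p under 0.05 or at a mean of at least 10 FPKM, and genes under 1 FPKM are named, with values from 0.1 FPKM; partners are named where they passed the threshold. RTN4R, EPHB3, EFNB3, NEO1, UNC5B and UNC5C are shown by library, and NGFR, SRGAP and ARHGAP39 are named, after their values were seen. GC content and 3′ UTRs (at least 30 bases) came from GENCODE 29, matched by RefSeq transcript or symbol; 98.6% of tested loci had a GC value. Alternatives were other scalings, pseudocounts, filters, a prior without a trend, a replicate block, removal of GC trends and leaving out each library.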

Additional observations from a re-analysis of the deposited data

How the results depend on the processing

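Without any 1 library, 1 to 7 members were lower and 0 to 3 higher, and of the partner list 1 to 7 were lower and 0 to 8 higher; the highest counts came without miR-424 replicate 3, and the lowest counts of lower genes came without an EV replicate. Over all tested loci the same settings gave 77 to 2574 lower and 31 to 1728 higher. With that replicate left out and the GC trend removed, 2 members and 10 partners were higher. With the GC trend removed, 1 member and 3 partners were higher. At a minimum of 5 FPKM 3 members were lower, where only 8 were tested, and 0 partners were higher. All 8305 loci tested at that minimum gave 468 lower and 107 higher. Of the partners, 2 were higher with median-of-ratios scaling, 2 were higher and 3 lower with quantile normalization, and 0 were higher with a pseudocount of 0.1 or with no filter on low values. ABL2 and MAGED1 turned from small negative values to log2 changes of 0.094 and 0.112 without miR-424 replicate 3 and with the GC trend removed; the cause was not tested. An 8-letter seed match was present in 5 members. Summed EPH receptor and ephrin levels moved by less than the replicate spread with median-of-ratios scaling and without any 1 library.

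The replicate numbers of the titles were not shown to pair the samples: deviations of same-numbered samples correlated at 0.0509, 0.152 and 0.127, and EV replicate 1 correlated better with miR-424 replicate 2 (0.0613) than with its own number. With a replicate block 3 members were lower (EFNB1, NTN4 and RTN4 did not pass), and 3 partners were lower and 0 higher. All tested loci gave 270 lower and 79 higher with that block. With the replicate block and the GC trend removed, 5 members were lower and 1 was higher, and 2 partners were higher and 3 lower. All 11407 loci tested in that setting gave 543 lower and 372 higher. Depth is unknown beyond the approximate relative values, which limits what can be said of genes under 1 FPKM.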
